A study of Mus musculus with 12 samples.

Results

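The insulin-like growth factor (IGF) system was examined in mpkCCD cells, which model the principal cell of the mouse cortical collecting duct, with and without the osmosensitive transcription factor NFAT5. The genes described are 10 of the 52015 genes used from the deposited expression values, namely the IGF-binding protein genes Igfbp2, Igfbp3, Igfbp4, Igfbp5, Igfbp6 and Igfbp7, the receptor gene Igf1r, and the genes of the IGF2 mRNA-binding proteins, Igf2bp1, Igf2bp2 and Igf2bp3. They were taken by gene symbol. The family was selected on the group values of Igfbp7, which was higher at 600 mosmol/kg, and of Igf2bp1, which was higher in the knockout cells, so the contrasts of these 2 genes are given as descriptions.

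Scr cells carried a scramble, non-targeting guide RNA, and Nfat5-KO cells were 2 CRISPR/Cas9 clones, N1 and N3. Each was kept for 5 days in isotonic medium (300 mosmol/kg) or in hypertonic medium brought to 600 mosmol/kg with 100 mM NaCl and 100 mM urea. RNA-seq was done on 2 libraries each of Scr_300 and Scr_600 and 4 libraries each of Nfat5-KO_300 and Nfat5-KO_600. All groups share the parental line and serum-containing medium. A difference between genotypes cannot be told apart from a trait of either clone or of the Scr line.

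IGF-binding proteins are secreted and hold the ligands IGF1 and IGF2 in the extracellular space, where they limit or prolong access to the receptor tyrosine kinase IGF1R. IGFBP7 shares the amino-terminal IGF-binding domain but binds IGFs only weakly, and is known as a secreted matrix-associated protein and, in urine, as a marker of tubular stress. The IGF2BP proteins belong to another class: they are cytoplasmic RNA-binding proteins, named after Igf2 mRNA, that bind and stabilise transcripts, many of them carrying N6-methyladenosine (m6A). IGF2BP1 and IGF2BP3 are mainly fetal proteins that reappear in tumours, whereas IGF2BP2 is widely expressed in adult tissue.

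Each gene has 1 deposited value per group, in FPKM, a read count scaled for transcript length and library size that allows levels of different genes to be set side by side. This value is the arithmetic mean over the libraries of the group. The values are printed with enough digits that the reads behind them could be recovered in part: the libraries held 29.3 to 37.5 M (mega) reads, and each Scr value of the 10 genes divides between its 2 libraries in exactly 1 way in whole reads. The Nfat5-KO values, each a mean of 4 libraries, could be divided only where few reads were counted. Which library belongs to which culture or clone is not known, so libraries are named by their size and no p-value or SD was calculated. In bulk RNA, fewer cells expressing a gene and less RNA per cell cannot be told apart.

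The transcript of the targeted gene was still present. Nfat5 was at 5.61 FPKM in Scr_300, 7.93 in Scr_600, 3.47 in Nfat5-KO_300 and 6.88 in Nfat5-KO_600, lower in the knockout at either osmolality. A CRISPR edit need not lower the transcript, so this level does not check the labels. Of the cell type markers, all 7 general and renal epithelial genes were expressed, with a summed level of 1150 to 1700 FPKM. Of the 11 principal cell genes, 4 reached 0.5 FPKM in a group (Aqp3, Scnn1a, Hsd11b2 and Gata3), whereas Aqp4, Avpr2, Scnn1g and Elf5 stayed below 0.1 FPKM and Aqp2 did not exceed 0.245 FPKM. Their summed level differed with genotype, at 10.1 FPKM in Scr_300, 8.92 in Scr_600, 20.7 in Nfat5-KO_300 and 46.9 in Nfat5-KO_600. Gata3 was the largest part of this sum in every group and stood at 3.41, 4.33, 11.8 and 30.0 FPKM in the same order. The Scr_600 libraries of Gata3 spanned 1.77 to 6.88 FPKM. Hsd11b2 and Scnn1a were also higher in knockout cells at either osmolality. Aqp3 was alike in isotonic medium, at 2.91 FPKM in Scr_300 and 2.93 in Nfat5-KO_300, and stood at 2.07 in Scr_600 and 2.82 in Nfat5-KO_600. The sum thus does not describe each principal cell gene. The 6 fibroblast markers summed to at most 0.249 FPKM and the 5 endothelial markers to at most 0.192 FPKM. The 4 leukocyte markers summed to 5.89 FPKM in Scr_300, 5.06 in Scr_600, 2.98 in Nfat5-KO_300 and 3.09 in Nfat5-KO_600, carried by Cd68 and Csf1r, whereas the defining Ptprc and Adgre1 stayed below 0.1 FPKM. Atp6v1b1 of the 5 intercalated cell markers (at most 0.973 FPKM) and Lrp2 of the 3 proximal tubule markers (1.07 FPKM in Nfat5-KO_600) also reached 0.5 FPKM, and the 2 podocyte markers did not. The part of these marker differences in the genotype differences given here was not tested.

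Of the 10 genes, 4 reached 0.5 FPKM in at least 1 group, namely Igfbp7, Igf1r, Igf2bp1 and Igf2bp2, and 6 did not. Among the binding proteins, Igfbp7 was the form these cells expressed: it made up between 98.8% and 100% of the summed FPKM of Igfbp2 to Igfbp7 in every group. Among the RNA-binding proteins Igf2bp2 was the main form, with 94.3% of the summed FPKM of the 3 genes in Scr_300, 89.7% in Scr_600, 86.8% in Nfat5-KO_300 and 84.3% in Nfat5-KO_600.

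Igfbp7 lies on the minus strand of chromosome 5 (GRCm38, chr5:77349240-77408041). It was the gene of the family with the largest differences between groups, and its level was 66.5 FPKM in Scr_300, 391 in Scr_600, 9.01 in Nfat5-KO_300 and 47.4 in Nfat5-KO_600. In Scr_300, the library of 32.0 M reads held 2826 Igfbp7 reads (73.1 FPKM) and the library of 35.9 M reads held 2606 (60 FPKM). In Scr_600, the library of 35.1 M reads held 17782 (419 FPKM) and that of 37.1 M reads held 16286 (363 FPKM). Both hypertonic libraries were therefore above both isotonic ones, and the smallest difference between any pair was 2.31 on the log2 scale.

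The group means of Igfbp7 differed 5.87-fold between Scr_600 and Scr_300. By level Igfbp7 ranked 43 of 22621 detected genes in Scr_600 and 5099 of 24973 in Nfat5-KO_300. Hypertonicity was accompanied by a higher Igfbp7 level without NFAT5 too, at 5.26-fold in Nfat5-KO_600 against Nfat5-KO_300. On the scale of log2 ratios of FPKM + 0.1 the hypertonic difference was 2.55 in Scr and 2.38 in Nfat5-KO cells. The 2 ratios are 0.17 apart, against a 5th to 95th percentile of -0.78 to 0.88 over 13414 genes. This difference of responses could not be tested with 1 value per group.

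Nfat5-KO cells held less Igfbp7 mRNA than Scr cells at either osmolality. The Nfat5-KO_300 mean was 13.5% of the Scr_300 mean (log2 ratio -2.87), and the Nfat5-KO_600 mean was 12.1% of the Scr_600 mean (log2 ratio -3.04). Since a mean of 4 values that are never negative limits each of them to 4 times the mean, no Nfat5-KO_300 library can exceed 36.1 FPKM and no Nfat5-KO_600 library 190 FPKM. Every knockout library was thus below both Scr libraries at the same osmolality, of which the lower held 60 and 363 FPKM. The level in hypertonic knockout cells was below that in isotonic Scr cells as group means, 47.4 against 66.5 FPKM.

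**Figure D1:**
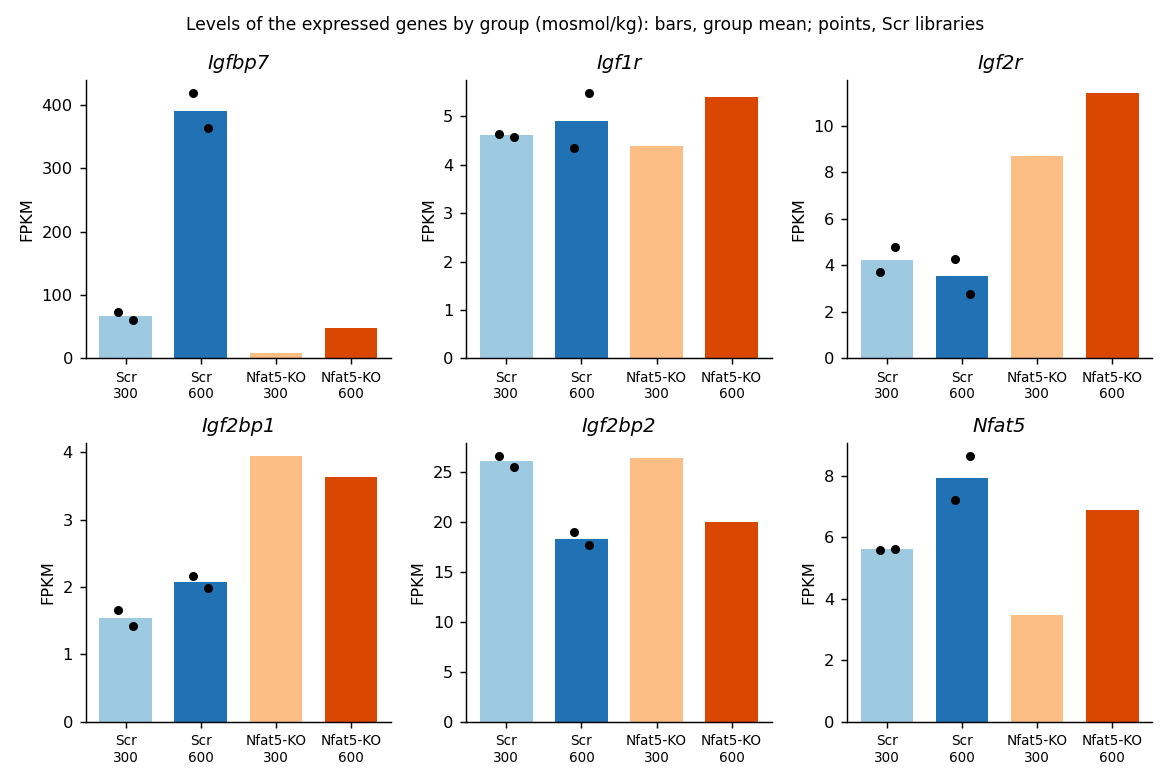
Level (FPKM) of the expressed genes, of Igf2r and of the targeted gene Nfat5 in each group. Bars are the deposited group means of 2 Scr or 4 Nfat5-KO libraries and points are the single Scr libraries. Igfbp7 was highest in Scr_600 (391 FPKM) and lowest in Nfat5-KO_300 (9.01 FPKM), and Igf2bp1 was higher in both knockout groups than in either Scr group.

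The sequence before the annotated start of Igfbp7 is shown because NFAT5 is known to bind DNA at a tonicity-responsive element whose core is TGGAAA. The 250 bases on the minus strand (RefSeq, GRCm38.p6, chr5:77408046-77408295) are printed 5′ to 3′, with GGGCGG and its reverse complement CCGCCC, the core of GC boxes, in capitals.
Igfbp7: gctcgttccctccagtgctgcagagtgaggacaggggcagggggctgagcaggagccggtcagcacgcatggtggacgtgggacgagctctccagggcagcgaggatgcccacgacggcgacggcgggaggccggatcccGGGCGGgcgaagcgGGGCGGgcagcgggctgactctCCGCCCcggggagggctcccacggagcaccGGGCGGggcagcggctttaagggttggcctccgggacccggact
This window held 4 GC box cores and neither TGGAAA nor the shorter GGAAA on either strand. Its GC content was 74%, against a median of 52.4% over all promoters, and it held 26 CpG dinucleotides against a median of 6. Of 32851 RefSeq promoters in windows of the same length, 32.7% held GGGCGG, 18.6% held TGGAAA and 55.6% held GGAAA, which TGGAAA contains. An element outside these 250 bases would not be seen here.

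Promoters of 9 of the 10 genes were matched, Igf2bp1 not among them, with 2 for Igfbp2. TGGAAA was found in 2 of these 10 windows, those of Igfbp5 and Igf2bp3, beside 18.6% of all promoters. Both stretches are shown with the motif in capitals. Both genes were close to silent, and a link between motif and level was not tested. The Igfbp5 stretch is chr1:72874866-72874888 and the Igf2bp3 stretch is chr6:49215161-49215190, both minus strand, GRCm38.p6, 5′ to 3′.
Igfbp5: ccgcagtctcttTGGAAActtct
Igf2bp3: gctcggacccttTGGAAActcgccgtgccc
The motif begins 11 bases before the RefSeq start of Igfbp5 and 224 bases before that of Igf2bp3; GENCODE M21 places the Igfbp5 start further upstream, at base 72874884, so there the motif falls inside the transcript.

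Igf1r (chr7:67952827-68233668, plus strand) encodes the tyrosine kinase receptor for IGF1 and IGF2. Its level was 4.61 FPKM in Scr_300, 4.91 in Scr_600, 4.38 in Nfat5-KO_300 and 5.39 in Nfat5-KO_600. The Scr_300 libraries were at 4.58 and 4.63 FPKM and the Scr_600 libraries at 4.35 and 5.48 FPKM, so the Scr groups overlapped. All 4 log2 ratios lay between -0.07 (Nfat5-KO_300 against Scr_300) and 0.30 (Nfat5-KO_600 against Nfat5-KO_300).

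Igf2bp1 (chr11:95957163-96005940, minus strand) was higher in the knockout cells. It stood at 1.54 FPKM in Scr_300, 2.07 in Scr_600, 3.94 in Nfat5-KO_300 and 3.64 in Nfat5-KO_600. In Scr_300 the library of 32.0 M reads held 513 reads (1.66 FPKM) and that of 35.9 M reads held 493 (1.42 FPKM). In Scr_600 the library of 35.1 M reads held 737 (2.17 FPKM) and that of 37.1 M reads held 711 (1.98 FPKM). The Scr groups did not overlap, although the smallest difference between a hypertonic and an isotonic library was only 0.25 on the log2 scale.

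Igf2bp1 was 2.56-fold higher in Nfat5-KO_300 than in Scr_300 and 1.76-fold higher in Nfat5-KO_600 than in Scr_600. On the log2(FPKM + 0.1) scale these ratios were 1.30 and 0.79. Of the 12704 genes tested in the first comparison, 106 had a higher ratio. The family was selected on this difference, so the rank describes the choice and is no separate result. The hypertonic ratio was 0.41 in Scr and -0.11 in Nfat5-KO cells, where the sign turned when all groups were scaled to the same FPKM total (0.13). The Nfat5-KO libraries of this gene could not be separated, so it is not known whether both clones were high.

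Igf2bp2 (chr16:22059009-22163299, minus strand) was lower in hypertonic medium in either genotype, with like levels in Scr and knockout cells. Its level was 26.1 FPKM in Scr_300, 18.3 in Scr_600, 26.4 in Nfat5-KO_300 and 20 in Nfat5-KO_600. The isotonic Scr libraries held 25.5 and 26.6 FPKM and the hypertonic ones 17.7 and 19.0 FPKM, without overlap. The hypertonic log2 ratios were -0.51 in Scr and -0.40 in Nfat5-KO cells, and the genotype ratios were 0.02 at 300 and 0.12 at 600 mosmol/kg. In hypertonic Scr cells Igf2bp1 was higher and Igf2bp2 lower. The share of Igf2bp1 in the summed FPKM of the IGF2BP genes went from 5.56% in Scr_300 to 10.1% in Scr_600. This share stood at 13% in Nfat5-KO_300 and 15.4% in Nfat5-KO_600, where Igf2bp1 itself was at 3.94 and 3.64 FPKM.

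**Figure D2:**
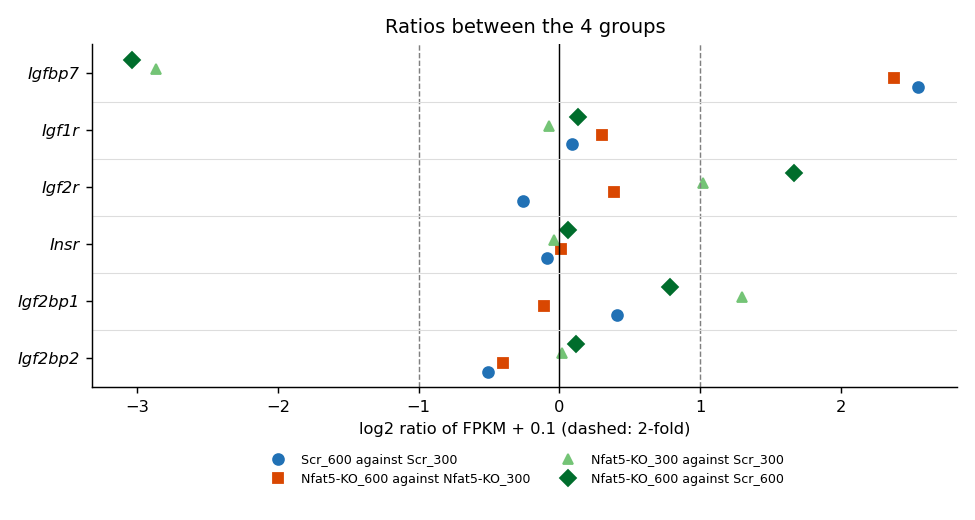
Log2 ratios of FPKM + 0.1 in the 4 comparisons for the expressed members and the receptor genes Igf2r and Insr; dashed lines mark 2-fold. Igfbp7 lay beyond 2-fold in all 4 comparisons (-3.04 to 2.55), Igf2bp1 only in Nfat5-KO_300 against Scr_300 (1.30), and Igf1r, Insr and Igf2bp2 stayed within 2-fold throughout.

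At a threshold of 2-fold, the 4 expressed genes were counted against all genes with at least 0.5 FPKM in 1 of the 2 groups. In Nfat5-KO_300 against Scr_300, 1 of 4 was higher (Igf2bp1) and 1 lower (Igfbp7), where 4.17% of all genes tested were past this threshold, 1.73% higher and 2.44% lower. In Nfat5-KO_600 against Scr_600, 1 of 4 was lower (Igfbp7) and 0 higher, with 7.44% of all genes past it, 3.76% higher and 3.68% lower. In the hypertonic comparison 1 of 4 was higher (Igfbp7) in Scr cells, beside 7.67% of all genes (4.81% higher, 2.86% lower). In Nfat5-KO cells it was again 1 of 4 (Igfbp7), beside 10.4% of all genes (6.25% higher, 4.11% lower). As Igfbp7 and Igf2bp1 brought the family to attention, these counts describe the choice and are no result about the family. Comparisons with a common group share its libraries and are not independent of each other.

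The other binding proteins were close to or at 0. Igfbp3, the main carrier of IGFs in blood, had no read in any of the 12 libraries, and a count of 0 allows up to 3 reads per group, that is at most 0.0141 FPKM in Scr_300 and 0.00681 FPKM in Nfat5-KO_600. Igfbp2 had 1 read in Scr_300, 1 in Scr_600, 0 in Nfat5-KO_300 and 2 in Nfat5-KO_600. Igfbp5 was counted only in Nfat5-KO_600, with 2 reads in one library and 3 in another. Such a limit covers counting error alone.

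Igfbp6, a binding protein that prefers IGF2, had 0 reads in Scr_300 and 1 in Scr_600. In Nfat5-KO_300, 4 of its 5 reads came from the library of 29.3 M reads and 1 from that of 30.8 M reads. In Nfat5-KO_600 all 6 reads came from 1 library, that of 34.7 M reads. A single library thus carried the group value.

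Igfbp4 (chr11:99041244-99054392, plus strand), a soluble binding protein that withholds IGFs from the receptor, was the low member with the widest range, at 0.0284 FPKM in Scr_300, 0.0312 in Scr_600, 0.0746 in Nfat5-KO_300 and 0.376 in Nfat5-KO_600. In Scr_300 all 9 reads came from 1 of the 2 libraries, and in Scr_600 the libraries held 4 and 6. In Nfat5-KO_300 the libraries of 29.3 and 30.8 M reads held 16 and 21 reads and those of 32.5 and 32.8 M reads held 0 and 3. Most of the isotonic knockout reads thus came from 2 of the 4 libraries, and the value of Nfat5-KO_600, equal to about 234 reads, could not be divided. One Igfbp4 transcript also carries a stretch of up to 205 bases that matches transcripts of 373 other genes at 90% identity or more, so that some reads may not be its own. Igfbp4 stayed below the level of 0.5 FPKM and entered no count.

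Igf2bp3 (chr6:49085223-49214957, minus strand) was low as well, at 0.0347 FPKM in Scr_300, 0.0393 in Scr_600, 0.0550 in Nfat5-KO_300 and 0.0650 in Nfat5-KO_600. The Scr_300 libraries held 11 and 8 reads and the Scr_600 libraries 14 and 9. In Nfat5-KO_300 the libraries of 29.3 and 30.8 M reads held 2 and 7 reads and those of 32.5 and 32.8 M reads held 25 and 24. In Nfat5-KO_600 the libraries held 14, 10, 33 and 18 reads in order of size. The isotonic pair that was high for Igfbp4 was thus low for Igf2bp3. Igf2bp3 shares 1529 exon bases with Malsu1 on the opposite strand, which reached 4.66 FPKM, and the library kit is not stated to keep the strand, so reads of the 2 genes cannot be told apart there.

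**Figure D3:**
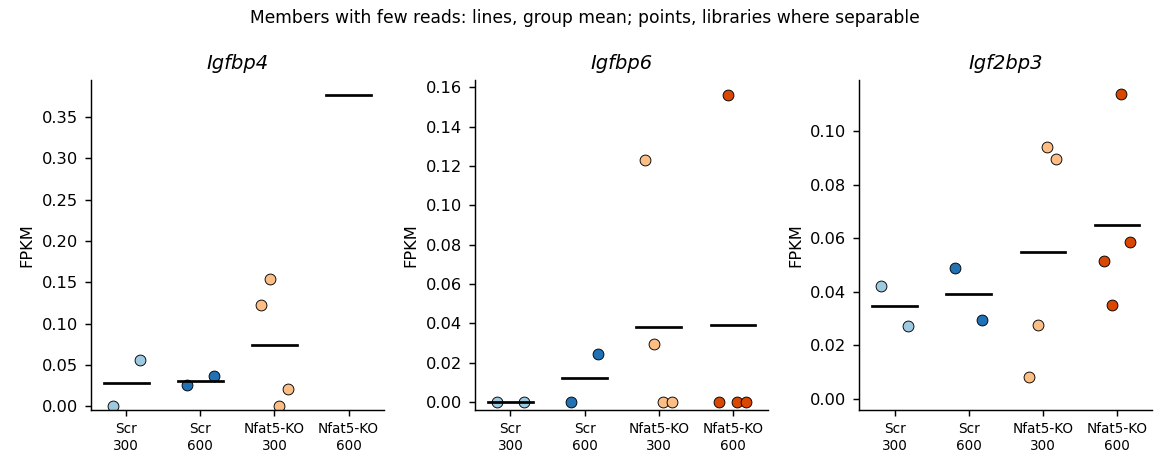
Level (FPKM) of the members with few reads, by group. Horizontal lines are the deposited group means and points are single libraries, in order of library size, where the mean could be divided into whole reads; for Igfbp4 in Nfat5-KO_600 (0.376 FPKM) it could not. In Nfat5-KO_300 the 2 libraries that were high for Igfbp4 (0.123 and 0.154 FPKM) were the lowest for Igf2bp3 (0.00835 and 0.0278 FPKM).

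Exons of other genes overlapped 2 of the expressed members. Polr2b, on the opposite strand and at up to 47.8 FPKM, shares 85 bases with the exons of Igfbp7 (1209 bases in all). Igf2bp1 overlaps with Mir3063 and Gm29202, neither of which had a read.

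The genes around each expressed member and around Igf2r on its chromosome were also measured. Within 10 Mb of Igf2bp1, the 283 genes of at least 1 FPKM had median genotype log2 ratios of 0.02 at 300 and 0.02 at 600 mosmol/kg. Within 10 Mb of Igfbp7, the 49 genes had medians of 0.07 and 0.06. The 45 genes around Igf1r had medians of 0.04 and -0.04. The 91 genes around Igf2r had medians of -0.10 and 0.01, and 30 of them were above 0 in isotonic and 47 in hypertonic medium. Around Igf2bp2 the 139 neighbours stood higher, with medians of 0.25 and 0.22, and 111 of them were above 0 in isotonic and 100 in hypertonic medium, beside 0.02 and 0.12 for Igf2bp2 itself. Medians over all such genes were 0.00 and -0.02. The part of this shift in the Igf2bp2 values was not tested.

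Over the 4 groups, the profile of Igfbp7 was compared with that of 11921 genes of at least 1 FPKM in a group, as the root mean square difference of log2(FPKM + 0.1) after each gene's mean was taken off. The nearest genes were Slco4a1 (0.439), a transporter of the organic anion family, Gm38079 (0.448), Cp (0.480), which encodes ceruloplasmin, Afap1l1 (0.490) and Chdh (0.496), the choline dehydrogenase that makes the precursor of the osmolyte betaine. Gm38079 is 154 bases long and its group values stand for only about 3, 20, 0 and 4 reads, and the 2 Scr_300 libraries differed 2.00-fold for Cp and 2.11-fold for Afap1l1. Slco4a1 stood at 3.72 FPKM in Scr_300, 46.2 in Scr_600, 1.01 in Nfat5-KO_300 and 4.77 in Nfat5-KO_600. Chdh stood at 2.38, 19.3, 0.622 and 4.0 FPKM in the same order. Both had their highest level in Scr_600 and their lowest in Nfat5-KO_300, as Igfbp7 had, and a wider hypertonic difference in Scr than in Nfat5-KO cells. The genes were picked for nearness to Igfbp7 over these same 4 values. Their likeness to it therefore follows from the choice and is no separate result.

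For Igf2bp1, the nearest profiles were those of Srl (0.0650), Ints1 (0.0714), Dlk2 (0.0992), Zfand2a (0.110) and Cgref1 (0.121). The measure is not scaled for the range of a gene, and Igf2bp1 varied less over the groups than Igfbp7. The smaller differences here therefore do not show a better match than those for Igfbp7. Ints1, a subunit of the Integrator complex, had 12.7 FPKM in Scr_300, 16.5 in Scr_600, 27.7 in Nfat5-KO_300 and 27.0 in Nfat5-KO_600. Its Scr libraries overlapped between osmolalities (10.2 to 15.2 and 13.4 to 19.6 FPKM). These likenesses rest on 4 values per gene.

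The remaining genes of the pathway were taken from a list of 44 ligands, receptors, binding proteins, adaptors and kinases, of which 33 reached 0.5 FPKM in either group of each comparison. The ligand genes Igf1, Igf2, Ins1 and Ins2, and the binding protein genes Igfbp1 and Igfbpl1, were listed at 0 in every group. At these depths 3 reads per group would be between 0.00215 and 0.0416 FPKM for Igfbp3 and these genes. Igfals, the subunit that binds IGF complexes in serum, did not exceed 0.0325 FPKM.

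Igf2r, the mannose-6-phosphate receptor that takes up IGF2 for degradation, was higher in the knockout cells. Its level was 4.24 FPKM in Scr_300, 3.52 in Scr_600, 8.71 in Nfat5-KO_300 and 11.4 in Nfat5-KO_600. The Scr libraries spanned 3.70 to 4.77 FPKM in isotonic and 2.76 to 4.28 FPKM in hypertonic medium and overlapped. The log2 ratio of knockout to Scr cells was 1.02 at 300 and 1.67 at 600 mosmol/kg. The insulin receptor gene Insr stood between 2.05 and 2.18 FPKM in all groups.

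In the genotype comparison, 1 of the 33 pathway genes was at least 2-fold higher in Nfat5-KO_300 (Igf2r) and 0 lower, beside 1.73% and 2.44% of all genes, with a median log2 ratio of -0.04 for the list and 0.00 for all genes. In Nfat5-KO_600 against Scr_600, Igf2r was higher and Grb14, an adaptor that inhibits insulin receptor signalling, was lower (log2 ratio -1.05), beside 3.76% and 3.68% of all genes. The median was 0.12 for the list and -0.02 for all genes.

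In hypertonic Scr cells, 3 of 33 pathway genes were at least 2-fold higher and 0 lower, beside 4.81% and 2.86% of all genes. They were Irs2, which encodes the docking protein that couples the receptors to PI3-kinase, the PI3-kinase regulatory subunit gene Pik3r3, and Grb14. Irs2 stood at 20.6 FPKM in Scr_300, 43.2 in Scr_600, 15.5 in Nfat5-KO_300 and 32.0 in Nfat5-KO_600, and its Scr libraries (19.4 and 21.8 against 35.2 and 51.1 FPKM) did not overlap. In Nfat5-KO cells, Irs2 (log2 ratio 1.04) was the 1 of 33 past the threshold, beside 10.4% of all genes, while Pik3r3 was just below it at 0.94. Grb14 was at 0.877, 1.93, 0.779 and 0.883 FPKM in Scr_300, Scr_600, Nfat5-KO_300 and Nfat5-KO_600, so that its hypertonic log2 ratio was 1.06 in Scr and 0.16 in Nfat5-KO cells. The kinases and effectors further down, such as Pik3ca, Akt1, Mtor and Foxo3, stayed within 2-fold on the FPKM as deposited. The downstream gene nearest to the threshold was Eif4ebp1, at 64.9, 53.8, 56.8 and 29.8 FPKM in Scr_300, Scr_600, Nfat5-KO_300 and Nfat5-KO_600. Its log2 ratio was -0.93 in Nfat5-KO_600 against Nfat5-KO_300 and -0.85 in Nfat5-KO_600 against Scr_600. With every group scaled to the same FPKM total, Foxo4 (1.08) and Pik3r3 (1.17) also passed 2-fold in Nfat5-KO_600 against Nfat5-KO_300, and Grb14 no longer did in Nfat5-KO_600 against Scr_600.

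**Figure D4:**
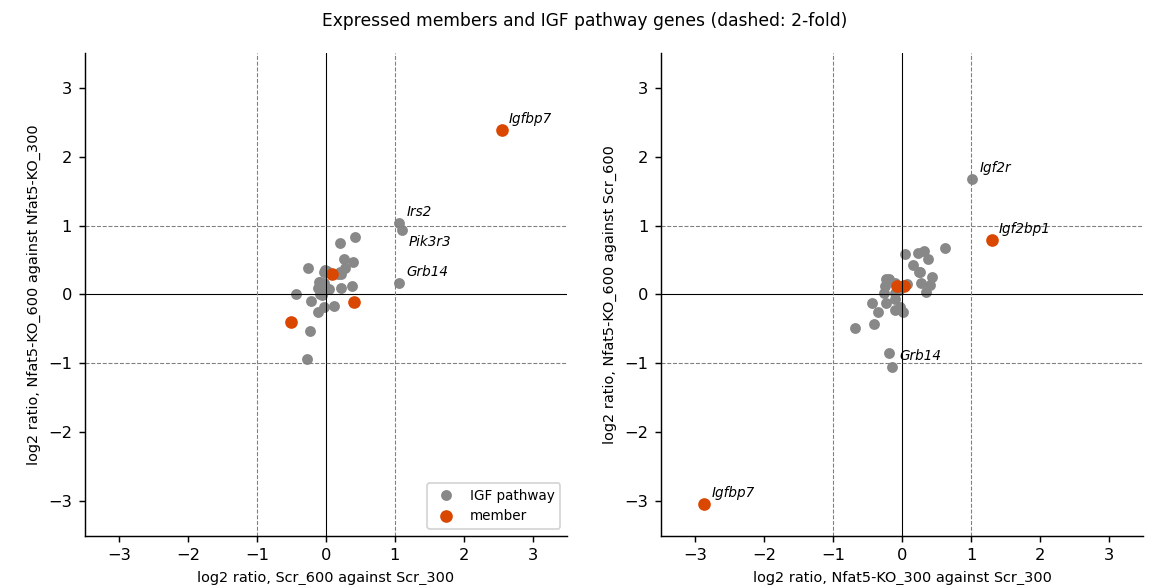
Log2 ratios of FPKM + 0.1 of the expressed members (orange) and pathway genes (grey). The left panel sets the hypertonic ratio in Nfat5-KO cells against that in Scr cells and the right panel the genotype ratio at 600 against that at 300 mosmol/kg, with dashed lines at 2-fold and names for genes past it. Most points lay within 2-fold; Igfbp7 stood at 2.55 and 2.38 in the left panel and at -2.87 and -3.04 in the right.

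Proteases that cut IGF-binding proteins, and their inhibitors, were a list of 15 genes, of which 7 reached 0.5 FPKM in each comparison. Pappa and Mmp7 were listed at 0, and Pappa2 and Stc2 had traces only. Htra1, a secreted serine protease, was at 17.5 FPKM in Scr_300, 17.1 in Scr_600, 47.4 in Nfat5-KO_300 and 25.9 in Nfat5-KO_600, so the genotype log2 ratio was 1.44 at 300 and 0.60 at 600 mosmol/kg. Adam12, a membrane metalloprotease, was at least 2-fold higher in knockout cells in both media (log2 ratios 1.39 and 1.05) at no more than 1.5 FPKM. With ratios taken of FPKM + 1, Adam12 was past 2-fold in neither medium. With a filter on the mean of both groups (1 FPKM), it was not counted at 600 mosmol/kg.

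Adamts1, a secreted metalloprotease, stood at 56.0, 73.8, 55.5 and 19.5 FPKM in Scr_300, Scr_600, Nfat5-KO_300 and Nfat5-KO_600. Its genotype log2 ratio at 600 mosmol/kg, -1.92, has to be read beside the Scr libraries, which spanned 35.9 to 112 FPKM in hypertonic medium. Timp1, an inhibitor of metalloproteases, was lower in hypertonic medium in both genotypes, at 16.1 against 4.68 FPKM in Scr and 30.9 against 4.43 FPKM in Nfat5-KO cells. Counted at 2-fold, 2 of the 7 were higher in Nfat5-KO_300 (Htra1 and Adam12), beside 1.73% of all genes. In Nfat5-KO_600 1 was higher (Adam12) and 1 lower (Adamts1), beside 3.76% and 3.68% of all genes. With ratios taken of FPKM + 1, Adam12 left the counts of both genotype comparisons. Htra1 (1.39) then remained in Nfat5-KO_300 and Adamts1 (-1.87) in Nfat5-KO_600. In hypertonic medium 1 was lower in Scr cells (Timp1) and 2 in Nfat5-KO cells (Adamts1 and Timp1), beside 2.86% and 4.11% of all genes. As this list too was chosen with earlier results of these data known, the protease counts are no independent evidence.

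On the side of the RNA-binding proteins, 24 genes were listed that encode RNP partners, let-7 regulators or reported bound transcripts of IGF2BPs. Of these, 18 to 20 reached 0.5 FPKM, depending on the comparison. In Nfat5-KO_300 against Scr_300, 0 of 18 were at least 2-fold apart, beside 4.17% of all genes. Gli1 and Mapk4 were below 0.5 FPKM in both of these groups and so were not among the 18. With no filter on low values, Mapk4 was past 2-fold in this comparison (-1.01). In Nfat5-KO_600 against Scr_600, Gli1, a transcription factor of Hedgehog signalling, was higher (log2 ratio 1.12) and Mapk4 was lower (-2.59), that is 2 of 20 beside 7.44% of all genes. In hypertonic medium Mapk4 was higher (2.19) and Cd44, a hyaluronan receptor, lower (-1.08) in Scr cells, and Gli1 was higher (1.66) and Cd44 lower (-2.47) in Nfat5-KO cells, that is 2 of 20 and 2 of 19, beside 7.67% and 10.4% of all genes. Mapk4 did not exceed 0.912 FPKM and Gli1 did not exceed 1.33 FPKM. With FPKM + 1 in place of FPKM + 0.1, neither was past 2-fold in any comparison. Cd44 then passed 2-fold only in Nfat5-KO cells (-2.08). In Scr cells Cd44 also fell within 2-fold when every group was scaled to the same FPKM total. Actb, Myc, Hmga2 and Ybx1 stayed within 2-fold in all 4 comparisons. Of 14 writers, erasers and other readers of m6A, all expressed, 0 were 2-fold apart in any comparison, beside 4.17% to 10.4% of all genes, and nothing is read from this count. Their log2 ratios spanned -0.58 (Mettl14, Nfat5-KO_600 against Nfat5-KO_300) to 0.59 (Rbm15, in the same comparison).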

How the data were processed

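RNA-seq values of 12 mpkCCD libraries in 4 groups were used. The authors removed paired-end reads with adapter, poly-N or low quality, mapped the rest with HISAT2 (GRCm38/mm10), counted them with HTSeq and deposited FPKM, as 1 value per gene and group. Of 54839 rows, 2436 without value or symbol, 311 exact duplicates and 37 symbols with several rows were left out, and 52015 genes were used.

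Log2 ratios were taken of FPKM + 0.1, over genes with at least 0.5 FPKM in 1 of the 2 groups, and counted at 2-fold. This scale understates differences of low genes. The planned limma test needs values per library and was not run. Named genes are the members, ligands and receptors, listed pathway, protease, partner and m6A genes past 2-fold, 5 nearest profiles each of Igfbp7 and Igf2bp1, and Nfat5; examples within 2-fold, cell type markers, Foxo4, genes at 0, overlapping genes and the IGFBP relatives were chosen after their values were seen. Members and lists were chosen with earlier results of these data known.

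After the data were seen, library totals were derived from genes holding 1 read (GENCODE M21 exon lengths), and group values were divided into whole reads within 1.1 half-units of the last of 10 digits. Of genes under 60 reads, 90.9% to 92.2% were divided in exactly 1 way and 0 in several. Divisions with 0.5 or more expected by chance were not used. For Igfbp7 in Scr_600 this number was 0.33. On simulated data, 500 of 500 values were divided rightly for Scr_300 (under 6000 reads) and 500 of 500 for Nfat5-KO_300 (under 60 reads); larger numbers, such as those of Igfbp7 in Scr_600 and of Igf2bp2, were not simulated. Similar transcripts were sought with blastn (90% identity, 150 bases). Scripts ran in Python 3.11.15 with pandas 2.3.3, numpy 2.4.6 and matplotlib 3.10.9.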

Additional observations from a re-analysis of the deposited data

How the results depend on the processing

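The alternatives were scaling by median-of-ratios factors or to equal FPKM totals, a pseudocount of 1 or 0.01, and a filter on the mean (1 FPKM) or none. Of the scalings, equal totals moved the median log2 ratio of all genes to 0.20 in Nfat5-KO_600 against Nfat5-KO_300 and to 0.11 in Nfat5-KO_600 against Scr_600. Igfbp7 stayed beyond 2-fold in all 4 comparisons (-2.88 to -2.75, -3.09 to -2.91, 2.54 to 2.68 and 2.27 to 2.62). In Nfat5-KO_600 against Nfat5-KO_300, Igf2bp2 ranged from -0.43 to -0.16 and Igf1r from 0.25 to 0.53. In Scr_600 against Scr_300, Igf2bp2 ranged from -0.51 to -0.38 and Igf1r from 0.08 to 0.22. The size of these small differences thus depends on the scaling. Igf2bp1 in Nfat5-KO_300 against Scr_300 ranged from 0.96 to 1.35, so a pseudocount of 1 left 1 member past 2-fold in that comparison. Without a filter 2 members were past it in Nfat5-KO_600 against Scr_600 and 2 in Nfat5-KO_600 against Nfat5-KO_300, Igfbp4 being added. For the pathway list, a pseudocount of 1 left 0 genes in Nfat5-KO_300 against Scr_300, 1 in Nfat5-KO_600 against Scr_600, 1 in Scr_600 against Scr_300 and 0 in Nfat5-KO_600 against Nfat5-KO_300. Equal FPKM totals gave 1 in Nfat5-KO_600 against Scr_600 and 3 in Nfat5-KO_600 against Nfat5-KO_300 (Foxo4 and Pik3r3 added). No paired analysis was possible because the deposited columns carry no replicate numbers, and leaving out replicates was not run for the same reason. The Nfat5-KO libraries of genes with many reads remained undivided, so the spread between clones is unknown for Igfbp7, Igf1r, Igf2bp1 and Igf2bp2.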

Other observations

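Relatives of the IGF-binding proteins, which share the amino-terminal domain, were listed as well (8 genes, chosen with earlier results known), and 4 reached 0.5 FPKM in each comparison. Wisp1, a matricellular protein of the CCN family, was at 3.81 FPKM in Scr_300, 10.1 in Scr_600, 1.29 in Nfat5-KO_300 and 0.736 in Nfat5-KO_600. It was thus higher in hypertonic medium in Scr cells (log2 ratio 1.38) and not in Nfat5-KO cells (-0.73), a difference that was not tested. Cyr61, another CCN protein, was at 23.1, 38.4, 12.2 and 9.85 FPKM in the same order, with genotype log2 ratios of -0.91 at 300 and -1.95 at 600 mosmol/kg. Crim1, a transmembrane protein with an IGF-binding motif, was higher in hypertonic medium in Scr cells (1.08, with 10.1 and 11.1 FPKM against 20.7 and 24.1 FPKM in the libraries) and stood at 0.88 in Nfat5-KO cells. Ctgf stayed within 2-fold in all 4 comparisons, at 29.3 to 68.1 FPKM. Library values were not recovered for Wisp1, Cyr61 and Ctgf, so the spread behind their group means is not known.

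At 2-fold, 1 of the 4 was lower in Nfat5-KO_300 (Wisp1), beside 2.44% of all genes, and 2 in Nfat5-KO_600 (Wisp1 and Cyr61), beside 3.68%. In hypertonic medium 2 were higher in Scr cells (Wisp1 and Crim1), beside 4.81% of all genes, and 0 in Nfat5-KO cells, beside 6.25%, where scaling to equal FPKM totals brought Crim1 to 1.12. The list was chosen with earlier results known, so these counts are no independent evidence.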
